A study of Homo sapiens with 23 samples.

Results

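MM1S and RPMI-8226 are established human multiple myeloma lines, grown in culture from malignant plasma cells, and both carry high levels of the oncogene MAF. Their baseline was compared here in the libraries made with the guide RNA named EV in the labels, a name the labels do not explain. These were 5 of the 23 libraries of the series, 2 of MM1S EV (replicates 2 and 3) and 3 of RPMI-8226 EV (replicates 1 to 3). The other libraries came from the IRF4 guide in both lines and from 2 further myeloma lines, H929 and OPM2. The file headers name Cas9 for every line, and every culture had 48 hours of doxycycline, the agent that switched on guide expression, so neither group is an untreated line. Each group is a single cell line, so a difference belongs to this pair of lines and cannot be told apart from what the guide, Cas9 or doxycycline did in each. Whether the replicates of a line came from separate cultures is not stated, and p-values therefore measure the spread between these libraries, which may be technical.

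Myeloma cells keep the plasma cell programme, with high secretion, low B cell genes and a dependence on the transcription factor IRF4. In a subgroup of patients a chromosome translocation places MAF, a leucine zipper transcription factor, under an immunoglobulin enhancer, and MAF is known to raise the cell cycle gene CCND2 and the adhesion gene ITGB7. Lines of the same subgroup can still differ in signalling, surface antigens and metabolism.

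The deposited table gave whole read counts for 28395 genes, of which 16468 were expressed enough to be tested. Totals were 9366370 and 8662035 counts in MM1S EV, against 24889522, 26133179 and 8974460 in RPMI-8226 EV, so depth moved with the line, and each gene's level is given as CPM, the share of the library's counts scaled to 1e6. Library pairs of a line had Pearson r of 0.989 in MM1S EV and 0.991 to 0.995 in RPMI-8226 EV across genes, which are not independent replicates. Differences are log2 fold changes of MM1S EV over RPMI-8226 EV from a model over all 23 libraries, given ± an approximate standard error (SE). The SE was derived from the test, as the size of the log2 fold change over the square root of the F statistic. For genes near 0 counts in 1 line it depends on the fit and may be smaller than the counting error. Genes counted as called had an adjusted p below 0.05 (edgeR quasi-likelihood test, Benjamini-Hochberg). In bulk libraries, fewer cells of a type and less RNA per cell cannot be told apart. Means of CPM are given ± SD with n = 2 for MM1S and n = 3 for RPMI-8226.

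The lines differed at most of the genes tested. Of the 16468 genes, 11153 were called (67.7%), with 5332 higher (32.4%) and 5821 lower (35.3%) in MM1S EV. A change of at least 2-fold was called for 3016 higher genes (18.3%) and 3309 lower genes (20.1%). The median size of the log2 fold change over all genes tested was 0.86, and the median itself was -0.05. The libraries of the lines did not overlap at 12833 genes (77.9%), so a called or non-overlapping gene is the usual case between these lines. The counts of members below are read against these shares. Calls were more frequent among genes at higher levels. Of 8401 genes with a chromosome and 20 CPM or more in at least 1 line, 3160 were higher and 3393 lower. Shares of list members below were not matched for level, so a list of well-expressed genes can exceed 67.7% for that reason.

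MAF was high in both lines and lower in MM1S. MAF (Entrez 4094, chromosome 16, 79202622 to 79600737) had 631 and 559 CPM in MM1S EV, against 1334, 1330.5 and 1369.7 CPM in RPMI-8226 EV. It was 2.26-fold lower in MM1S EV (log2 fold change -1.17 ± 0.12, adjusted p = 5.87e-10), with no overlap, beside 178 CPM in H929 EV and 69.6 CPM in OPM2 EV. MYC, the growth regulator, had 586 and 551 CPM in MM1S EV, against 1194, 1145 and 1113 CPM in RPMI-8226 EV (-1.02 ± 0.11, adjusted p = 5.11e-09). IRF4, the plasma cell factor that the IRF4 guide targets, had 724 and 641 CPM in MM1S EV, against 482, 461 and 409 CPM in RPMI-8226 EV. It was 1.51-fold higher in MM1S EV (0.60 ± 0.20, adjusted p = 0.0140), but the call was lost without MM1S EV replicate 2 (0.50, adjusted p = 0.106). CCND2, the D cyclin tied to MAF, had 607 and 558 CPM in MM1S EV, against 436, 409 and 399.7 CPM in RPMI-8226 EV (0.49 ± 0.10, adjusted p = 5.02e-05). In both lines IRF4 lay below the other lines, at 2199 CPM in H929 EV and 1639.7 CPM in OPM2 EV.

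Other oncogenes that mark myeloma subgroups separated the lines less evenly. CCND1, a D cyclin of another subgroup, had 1.22 and 1.12 CPM in MM1S EV, against 69.0, 71.6 and 57.8 CPM in RPMI-8226 EV (-5.82 ± 0.19, adjusted p = 1.39e-21), beside 139 CPM in H929 EV and 0.118 CPM in OPM2 EV. CCND3 averaged 79.7 ± 0.254 CPM in MM1S EV and 47.0 ± 2.01 CPM in RPMI-8226 EV and NSD2, a histone methyltransferase, averaged 332 ± 20.7 CPM in MM1S EV and 220.0 ± 13.4 CPM in RPMI-8226 EV, and both were called higher in MM1S EV (0.76 ± 0.09 and 0.59 ± 0.08). FGFR3, a receptor tyrosine kinase, averaged 1.12 CPM in MM1S EV and 2.51 CPM in RPMI-8226 EV and was not called (adjusted p = 0.0658), though it was called lower without RPMI-8226 EV replicate 1 (adjusted p = 0.037) and under 4 other alternatives (adjusted p = 0.00659 to 0.0336). Among 10 genes tied to MAF in myeloma, 4 were higher and 4 lower in MM1S EV. ITGB7, an integrin that binds cells to the marrow, was 2.77-fold higher (10294 ± 169 CPM in MM1S EV and 3715 ± 243 CPM in RPMI-8226 EV). CX3CR1, the receptor of the chemokine fractalkine, had 0.612 and 1.00 CPM in MM1S EV, against 1186, 1050.3 and 1010.3 CPM in RPMI-8226 EV (-10.39 ± 0.46, adjusted p = 1.83e-12). RND3, a small GTPase, was 38.0-fold lower. Neither direction prevailed among these 10 genes.

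**Figure D1:**
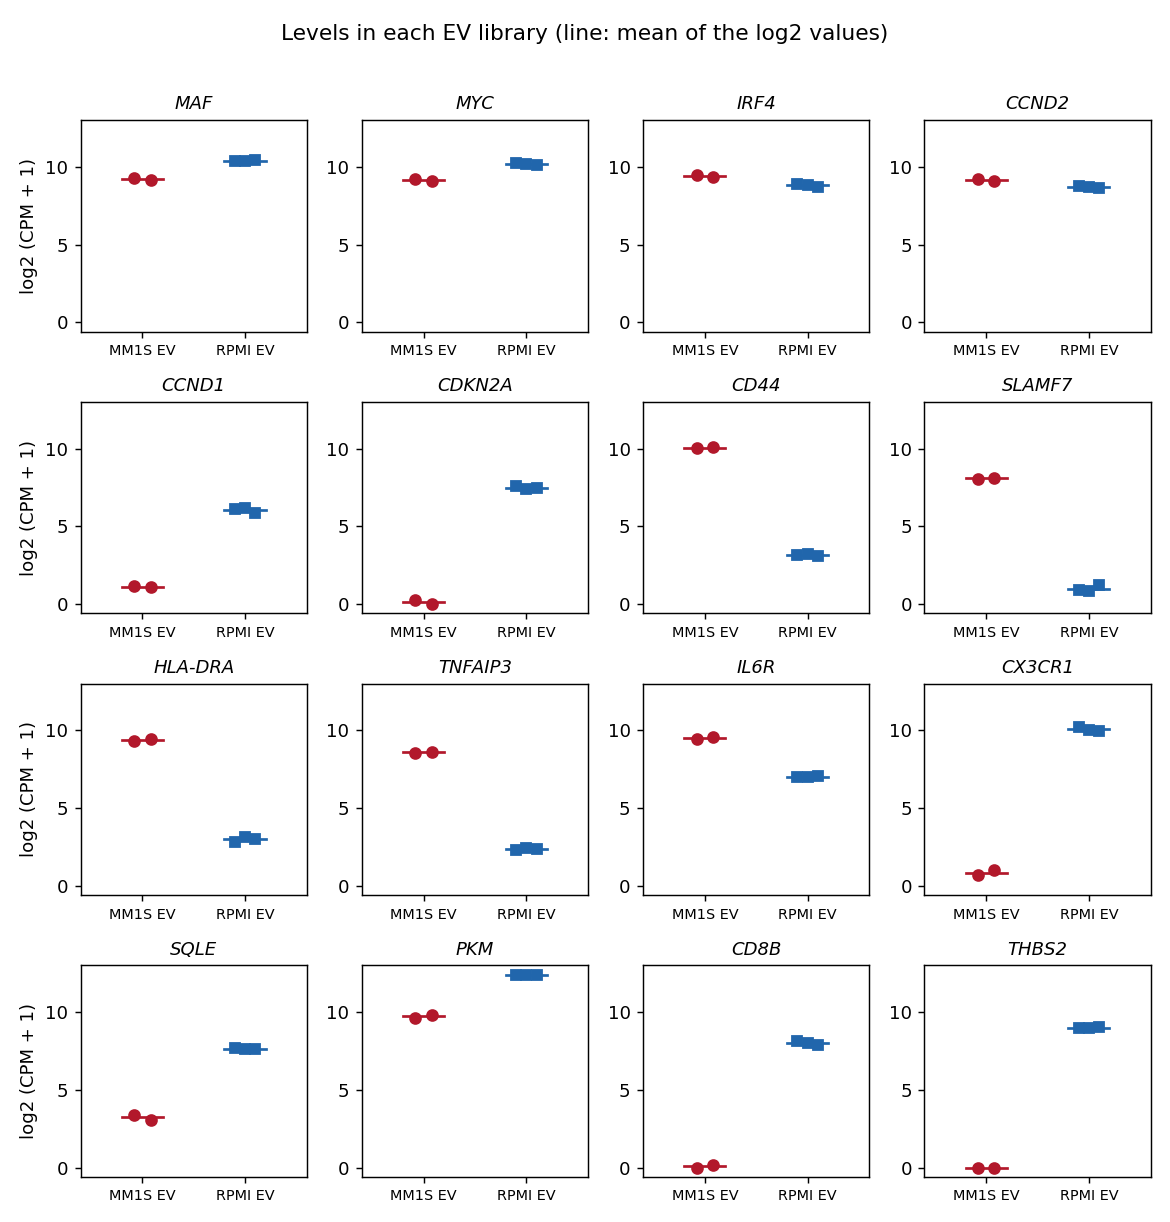
Levels of 16 genes in each library, as log2 of CPM plus 1, with MM1S EV libraries as circles on the left and RPMI-8226 EV libraries as squares on the right, and a line at the mean of the log2 values. The libraries of the lines do not overlap at any of the 16 genes, beside 77.9% without overlap among all genes tested. Some of the 16 were chosen after their values were seen. In this figure IRF4 (log2 fold change 0.60) and CCND2 (0.49) had smaller folds, and THBS2 was at 0 CPM in both MM1S EV libraries.

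Many genes were on in 1 line and at or near 0 in the other. Of the genes called, 335 were higher in MM1S EV with 0 counts in all RPMI-8226 EV libraries, and 865 were lower with 0 counts in both MM1S EV libraries. MM1S EV had fewer libraries and fewer counts in all, so 0 counts is reached more easily there. Among genes at 20 CPM or more in the line that expressed them, these were 12 and 65. At the same minimum, 94 genes were under 0.5 CPM in RPMI-8226 EV and 160 were under 0.5 CPM in MM1S EV. Genes were ranked by fitted fold change among those with no overlap and 20 CPM or more in the higher line, and the 14 largest in each direction are described. At 0 counts this value depends on the fit, so the order favours such genes. CD8B, with 1 count in MM1S EV, had a ratio of RPMI-8226 over MM1S of 4928-fold (95% counting interval 884 to 194667). It ranked below NETO1, with 0 counts in MM1S EV and a ratio of at least 391-fold. In 12 of the 14 higher genes and 14 of the 14 lower genes the other line had 0 counts, so folds are lower bounds against a floor of 3 counts over the group.

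Among the 14 largest differences in favour of MM1S, ABHD17B, a depalmitoylating enzyme, had 55.3 and 60.1 CPM in MM1S EV, against 0, 0 and 0 CPM in RPMI-8226 EV, at least 1133-fold higher. PLK2, a kinase induced by stress and p53, had 46.7 and 44.3 CPM in MM1S EV, against 0, 0 and 0 CPM in RPMI-8226 EV (at least 895-fold higher). LAMP5, a membrane protein of plasmacytoid dendritic cells and neurons, had 329 and 308 CPM in MM1S EV, against 0.0411, 0.0391 and 0.110 CPM in RPMI-8226 EV. Its 3 counts in RPMI-8226 EV put the ratio at 6266-fold (95% counting interval 2143 to 30393). HBD, the delta globin gene, had 31.9 and 36.0 CPM in MM1S EV, against 0, 0 and 0 CPM in RPMI-8226 EV, while HBB next to it averaged 0.682 CPM in MM1S EV and 0 CPM in RPMI-8226 EV. PDLIM3 was at least 627-fold higher. FEZF1, a zinc finger factor of the developing forebrain, and its antisense neighbour FEZF1-AS1 were at least 561-fold and at least 534-fold higher, and reads of overlapping genes may not be separable. IGLL5, a gene of the immunoglobulin lambda locus, had 1054 and 1047 CPM in MM1S EV, against 0.288, 0.156 and 0.658 CPM in RPMI-8226 EV (11.79 ± 0.21, adjusted p = 3.98e-26). The rest were PKIA, CNKSR2, C3orf70, JPH1, WWC2 and CEND1, with means of 20.2 to 24.5 CPM in MM1S EV and 0 counts in RPMI-8226 EV.

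Among the 14 largest differences in favour of RPMI-8226, THBS2, a secreted matrix protein (thrombospondin family), had 0 and 0 CPM in MM1S EV, against 506, 506 and 520.2 CPM in RPMI-8226 EV, and was at least 3180.1-fold lower in MM1S EV. SNX9, a sorting protein of endocytosis, had 0 and 0 CPM in MM1S EV, against 144, 137 and 140.1 CPM in RPMI-8226 EV (at least 878-fold lower). PPL, a desmosome linker protein, had 0 and 0 CPM in MM1S EV, against 119, 108 and 123 CPM in RPMI-8226 EV (at least 718-fold lower). TNFRSF18, the costimulatory receptor GITR, had 0 and 0 CPM in MM1S EV, against 122, 118 and 105 CPM in RPMI-8226 EV (at least 735-fold lower). KRT18, an epithelial keratin, had 0 and 0 CPM in MM1S EV, against 106, 111 and 119 CPM in RPMI-8226 EV (at least 690.2-fold lower). RASAL1, a brake on RAS, and GRIN2A, a glutamate receptor subunit, were at least 619-fold and at least 584-fold lower. ADGRG6, BMP7, GTSF1, EPHB2, ELFN2, NPW and NETO1 averaged 62.0 to 86.7 CPM in RPMI-8226 EV and had 0 counts in MM1S EV. Both MM1S EV libraries were at 0 for all 14, which a ranking by fitted fold favours.

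IGLL5 and THBS2 were also among the 10 genes of smallest adjusted p in their direction. CD44, the hyaluronan receptor and adhesion molecule, had 1062 and 1083 CPM in MM1S EV, against 7.78, 8.41 and 7.68 CPM in RPMI-8226 EV (7.06 ± 0.12, adjusted p = 1.51e-27), 134-fold higher in MM1S EV. PTPRG, a receptor phosphatase, averaged 183 ± 3.02 CPM in MM1S EV and 3.20 ± 0.120 CPM in RPMI-8226 EV, and XYLT1, which starts proteoglycan chains, averaged 167 ± 8.66 CPM in MM1S EV and 1.27 ± 0.709 CPM in RPMI-8226 EV. RASGRP3, a RAS activator of B cells, was 637-fold higher (230.3 CPM in MM1S EV and 0.307 CPM in RPMI-8226 EV). LEF1, a nuclear partner of beta-catenin, averaged 99.3 ± 0.0949 CPM in MM1S EV and 0.181 ± 0.0905 CPM in RPMI-8226 EV, and WNT5B, a WNT ligand, averaged 145 ± 9.84 CPM in MM1S EV and 2.21 ± 0.165 CPM in RPMI-8226 EV. PERP, a p53 target of cell junctions, averaged 277 CPM in MM1S EV and 0.274 CPM in RPMI-8226 EV and PPP1R16B, a phosphatase subunit, averaged 533 CPM in MM1S EV and 0.296 CPM in RPMI-8226 EV. In the other direction, TLE5, a corepressor, averaged 2.51 ± 0.236 CPM in MM1S EV and 190.1 ± 6.36 CPM in RPMI-8226 EV (-6.24 ± 0.14, adjusted p = 3.37e-25). PFKP, the platelet form of the glycolytic enzyme phosphofructokinase, had 0.204 and 0.112 CPM in MM1S EV, against 208, 208 and 206 CPM in RPMI-8226 EV. Its 3 counts in MM1S EV put the ratio of RPMI-8226 over MM1S at 1300.1-fold (95% counting interval 445 to 6305). CD81, a tetraspanin, also had 3 counts in MM1S EV (0.163 CPM in MM1S EV and 126 CPM in RPMI-8226 EV). SCARB1, the receptor of high density lipoprotein, was 32.3-fold lower, and LY6E, AGPAT2, COBL and FRMD3 were 79.1-fold, 126-fold, 368-fold and 296-fold lower.

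The promoters of genes that were on in only 1 line were set beside those of all genes tested. RefSeq (GRCh38.p14) gave a promoter window, 250 bases before to 50 after the start, for 12553 of 16456 reported genes. The motif counted was CG, which reads the same on both strands. At least 1 CG was in 99.3% of windows and 10 or more in 83.6%, with a median of 25. Genes higher in MM1S EV with 0 to 3 counts in RPMI-8226 EV had a median of 16 (430 genes). Genes lower in MM1S EV with 0 to 3 counts there had a median of 18 (882 genes). The median was 20 (22 genes) and 28 (75 genes) among those at 20 CPM or more in the expressing line, beside 27 for all genes at that level. HBD and SNX9 are shown because they had the fewest and the most CG among the 20 of these largest differences that were counted, with each CG in capitals and the gene's strand read 5′ to 3′. The HBD window lies at chr11:5234434-5234733 (minus strand) with 2 CG, and the SNX9 window at chr6:157822996-157823295 (plus strand) with 54.
HBD: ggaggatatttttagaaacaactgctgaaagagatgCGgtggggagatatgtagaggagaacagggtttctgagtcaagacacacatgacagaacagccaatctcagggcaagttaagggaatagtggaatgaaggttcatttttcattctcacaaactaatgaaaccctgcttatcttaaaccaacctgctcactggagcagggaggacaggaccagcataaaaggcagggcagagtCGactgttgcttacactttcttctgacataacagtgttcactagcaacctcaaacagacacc
SNX9: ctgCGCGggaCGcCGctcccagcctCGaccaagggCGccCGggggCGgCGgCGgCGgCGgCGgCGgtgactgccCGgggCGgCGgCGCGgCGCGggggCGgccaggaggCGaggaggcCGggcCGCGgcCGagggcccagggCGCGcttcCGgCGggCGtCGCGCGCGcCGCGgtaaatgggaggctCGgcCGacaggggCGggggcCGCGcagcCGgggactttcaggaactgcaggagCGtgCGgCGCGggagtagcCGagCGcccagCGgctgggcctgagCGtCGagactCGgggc
HBD was expressed in MM1S EV and SNX9 in RPMI-8226 EV, so a window nearly free of CG and a window dense in CG both belonged to genes with 0 counts in the other line.

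Most plasma cell genes were expressed in both lines and higher in MM1S. Of 19 tested members of the plasma cell identity list, 13 were called higher and 2 lower in MM1S EV (median log2 fold change 0.70, against -0.05 over all genes). PRDM1, the factor BLIMP1 that drives plasma cell differentiation, had 262 and 229 CPM in MM1S EV, against 102, 103 and 89.2 CPM in RPMI-8226 EV (1.32 ± 0.09, adjusted p = 4.64e-14). ELL2, an elongation factor for secreted immunoglobulin transcripts, averaged 115 ± 1.17 CPM in MM1S EV and 34.9 ± 3.71 CPM in RPMI-8226 EV, and POU2AF1, a B lineage coactivator, averaged 271 ± 7.65 CPM in MM1S EV and 161 ± 8.26 CPM in RPMI-8226 EV. CD38 and IGF1R were the members called lower, and IGF1R lost its call without MM1S EV replicate 2 (adjusted p = 0.197). Defining markers were present: SDC1 averaged 497 CPM in MM1S EV and 417 CPM in RPMI-8226 EV, XBP1 573 CPM in MM1S EV and 420.2 CPM in RPMI-8226 EV and MZB1 292 CPM in MM1S EV and 293 CPM in RPMI-8226 EV. SLAMF7 was at about 1 CPM in RPMI-8226 EV, FCRL5 was under 1 CPM in both lines, and CD27 was too low to be tested.

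Antigens used as drug targets in myeloma split the lines. Of 20 in the list, 13 were higher and 4 lower in MM1S EV (85.0% called, against 67.7% over all genes). SLAMF7, the target of elotuzumab, had 269 and 272 CPM in MM1S EV, against 0.905, 0.782 and 1.32 CPM in RPMI-8226 EV (8.19 ± 0.21, adjusted p = 1.22e-20). GPRC5D, an orphan receptor targeted by bispecific antibodies, had 54.5 and 52.8 CPM in MM1S EV, against 0.700, 0.508 and 0.768 CPM in RPMI-8226 EV (6.40 ± 0.30, adjusted p = 1.48e-14). TNFRSF17, which encodes BCMA, had 186 and 187 CPM in MM1S EV, against 74.8, 56.1 and 56.3 CPM in RPMI-8226 EV, 2.97-fold higher in MM1S EV. CD48, a SLAM family receptor, had 239.9 and 279 CPM in MM1S EV, against 0.453, 0.587 and 0.439 CPM in RPMI-8226 EV (8.98 ± 0.31, adjusted p = 6.79e-15), and LY9 of the same family was 61.6-fold higher. SLAMF6 averaged 4.88 CPM in MM1S EV and 0 CPM in RPMI-8226 EV. In the other direction CD38, the target of daratumumab, had 12.3 and 13.3 CPM in MM1S EV, against 59.7, 44.8 and 47.1 CPM in RPMI-8226 EV, 3.96-fold lower (-1.99 ± 0.32, adjusted p = 2.38e-05). NCAM1, which encodes CD56, averaged 1.92 CPM in MM1S EV and 162 CPM in RPMI-8226 EV, and ICAM1, the ligand of leukocyte integrins, averaged 2.94 ± 0.414 CPM in MM1S EV and 256 ± 22.2 CPM in RPMI-8226 EV. SDC1 (CD138) was 1.19-fold higher, TNFRSF13B was 1.32-fold higher, and CD46, CD47 and BSG were 1.78-fold, 1.14-fold and 1.12-fold higher. CD28 (adjusted p = 0.900), CD274 (0.0786) and FCRL5 (0.429) were not called, and TNFRSF13C, also called lower, was under 1 CPM in both lines. The calls of TNFRSF13B (4 of 5 libraries), CD47 (4 of 5), BSG (MM1S EV replicate 3, RPMI-8226 EV replicate 2) and TNFRSF13C (MM1S EV replicate 3, RPMI-8226 EV replicate 2) were lost when 1 of the libraries counted or named was left out. With all libraries kept, CD47 and BSG also lost their calls in edgeR with RLE scaling (adjusted p = 0.0534 and 0.0641) and with no filter (0.0852 and 0.0944). TNFRSF13B lost its call with limma on the deposited log2 RPKM (adjusted p = 0.672), and TNFRSF13C by DESeq2 (0.068).

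MHC class II was the list with the largest share of members higher in MM1S, 12 of 13 tested, with 0 lower by edgeR (0 at an unadjusted p under 0.05, 0 by DESeq2) and a median log2 fold change of 4.39. These genes present peptides to helper T cells and depend on the coactivator CIITA. CIITA had 42.4 and 33.2 CPM in MM1S EV, against 4.61, 3.91 and 4.61 CPM in RPMI-8226 EV (3.12 ± 0.18, adjusted p = 1.41e-15). HLA-DRA had 649 and 683 CPM in MM1S EV, against 6.17, 7.86 and 7.24 CPM in RPMI-8226 EV (6.56 ± 0.35, adjusted p = 4.03e-11), and CD74, the invariant chain, had 2310.2 and 2420.0 CPM in MM1S EV, against 66.4, 76.4 and 80.9 CPM in RPMI-8226 EV (4.99 ± 0.28, adjusted p = 4.97e-11). HLA-DRB1 averaged 98.2 CPM in MM1S EV and 0.326 CPM in RPMI-8226 EV, HLA-DPA1 134 CPM in MM1S EV and 0.438 CPM in RPMI-8226 EV and HLA-DPB1 50.1 CPM in MM1S EV and 0.129 CPM in RPMI-8226 EV. HLA-DQB1 had 0 counts in RPMI-8226 EV and was at least 127-fold higher. HLA-DMA and HLA-DMB, which load the peptide, were higher by 4.39 and 3.80 on the log2 scale. RFX5, a factor that works with CIITA, was 1.49-fold higher, and the protease gene CTSS was not called (adjusted p = 0.241). H929 EV and OPM2 EV were low as well, with CD74 at 0.270 CPM in H929 EV and 0.104 CPM in OPM2 EV. Reads of close HLA paralogs may be shared between them.

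MHC class I did not follow, with 7 of 20 members higher, 8 lower and a median log2 fold change of -0.01. HLA-E, a ligand of natural killer receptors, was 2.33-fold higher (436 ± 31.4 CPM in MM1S EV and 186 ± 9.96 CPM in RPMI-8226 EV). HLA-B averaged 629 ± 34.6 CPM in MM1S EV and 887 ± 43.9 CPM in RPMI-8226 EV and was called lower. NLRC5, the class I counterpart of CIITA, was 3.68-fold lower (9.95 ± 1.24 CPM in MM1S EV and 36.6 ± 2.54 CPM in RPMI-8226 EV). B2M, the shared light chain, averaged 1596 ± 2.94 CPM in MM1S EV and 1646 ± 79.6 CPM in RPMI-8226 EV and was not called (adjusted p = 0.715), while limma on the deposited log2 RPKM put it higher in MM1S EV (0.27, adjusted p = 0.0262). Interferon-stimulated genes were mixed too, with 18 of 42 higher and 13 lower (73.8% called, also near that share), as genes were in general. IFIH1, OAS2 and HERC5 were 1.93-fold, 3.69-fold and 4.34-fold higher, and IFITM1, EPSTI1 and OASL were 6.62-fold, 3.65-fold and 11.1-fold lower. Among receptors that sense nucleic acid in endosomes, TLR7 averaged 80.9 ± 1.03 CPM in MM1S EV and 1.44 ± 0.519 CPM in RPMI-8226 EV, whereas TLR9 averaged 0.112 ± 0.158 CPM in MM1S EV and 121 ± 7.59 CPM in RPMI-8226 EV. Its 2 counts in MM1S EV put the ratio of RPMI-8226 over MM1S at 1154-fold (95% counting interval 319 to 9530.1). TLR4, the sensor of bacterial lipopolysaccharide, averaged 36.8 ± 0.843 CPM in MM1S EV and 171 ± 9.10 CPM in RPMI-8226 EV.

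NF-kB genes were mostly higher in MM1S. This pathway releases RELA or RELB dimers from inhibitors, through a canonical branch and a noncanonical branch that TRAF3 restrains by bringing the kinase encoded by MAP3K14 to the ligases that mark it for degradation. Of 29 tested members, 18 were called higher and 5 lower (median log2 fold change 0.50). TNFAIP3, which encodes the brake A20, had 372 and 389 CPM in MM1S EV, against 3.91, 4.42 and 4.17 CPM in RPMI-8226 EV (6.51 ± 0.17, adjusted p = 5.62e-21). BIRC3, which encodes cIAP2, had 228 and 248 CPM in MM1S EV, against 8.93, 8.49 and 8.12 CPM in RPMI-8226 EV (4.80 ± 0.25, adjusted p = 2.67e-12). TRAF3 averaged 87.5 ± 2.65 CPM in MM1S EV and 13.4 ± 1.19 CPM in RPMI-8226 EV (2.72 ± 0.12, adjusted p = 1.00e-18), and NFKB2, the noncanonical precursor, had 267 and 269 CPM in MM1S EV, against 35.8, 38.9 and 46.3 CPM in RPMI-8226 EV (2.75 ± 0.15, adjusted p = 8.80e-14). RELB averaged 61.2 ± 1.29 CPM in MM1S EV and 8.08 ± 0.532 CPM in RPMI-8226 EV, BCL3 21.6 ± 0.729 CPM in MM1S EV and 3.66 ± 0.567 CPM in RPMI-8226 EV and NFKB1 140.3 ± 7.76 CPM in MM1S EV and 65.9 ± 5.32 CPM in RPMI-8226 EV, all higher in MM1S EV. CYLD, a deubiquitinase that restrains the pathway, was 2.35-fold higher and NFKBIA, which encodes the inhibitor IkB-alpha, 1.41-fold higher. TNFRSF1B, the second receptor of tumour necrosis factor, was 4.18-fold lower (41.9 ± 2.60 CPM in MM1S EV and 175 ± 10.3 CPM in RPMI-8226 EV). TRAF1, RELA, IKBKG and LTBR were the other members called lower, LTBR at under 1 CPM in both lines. RELA lost its call without MM1S EV replicate 3, LTBR without MM1S EV replicate 2 or RPMI-8226 EV replicate 1 or 2, and IKBKG without any library but RPMI-8226 EV replicate 1. With all libraries kept, IKBKG also lost its call in edgeR with no filter (adjusted p = 0.0615) and with limma on the deposited log2 RPKM (0.0721). LTBR lost its call by DESeq2 (adjusted p = 0.096). The number lower was 3 without MM1S EV replicate 2, without MM1S EV replicate 3 or without RPMI-8226 EV replicate 2. MAP3K14 averaged 54.8 ± 0.564 CPM in MM1S EV and 49.4 ± 1.67 CPM in RPMI-8226 EV and was not called (adjusted p = 0.287).

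**Figure D2:**
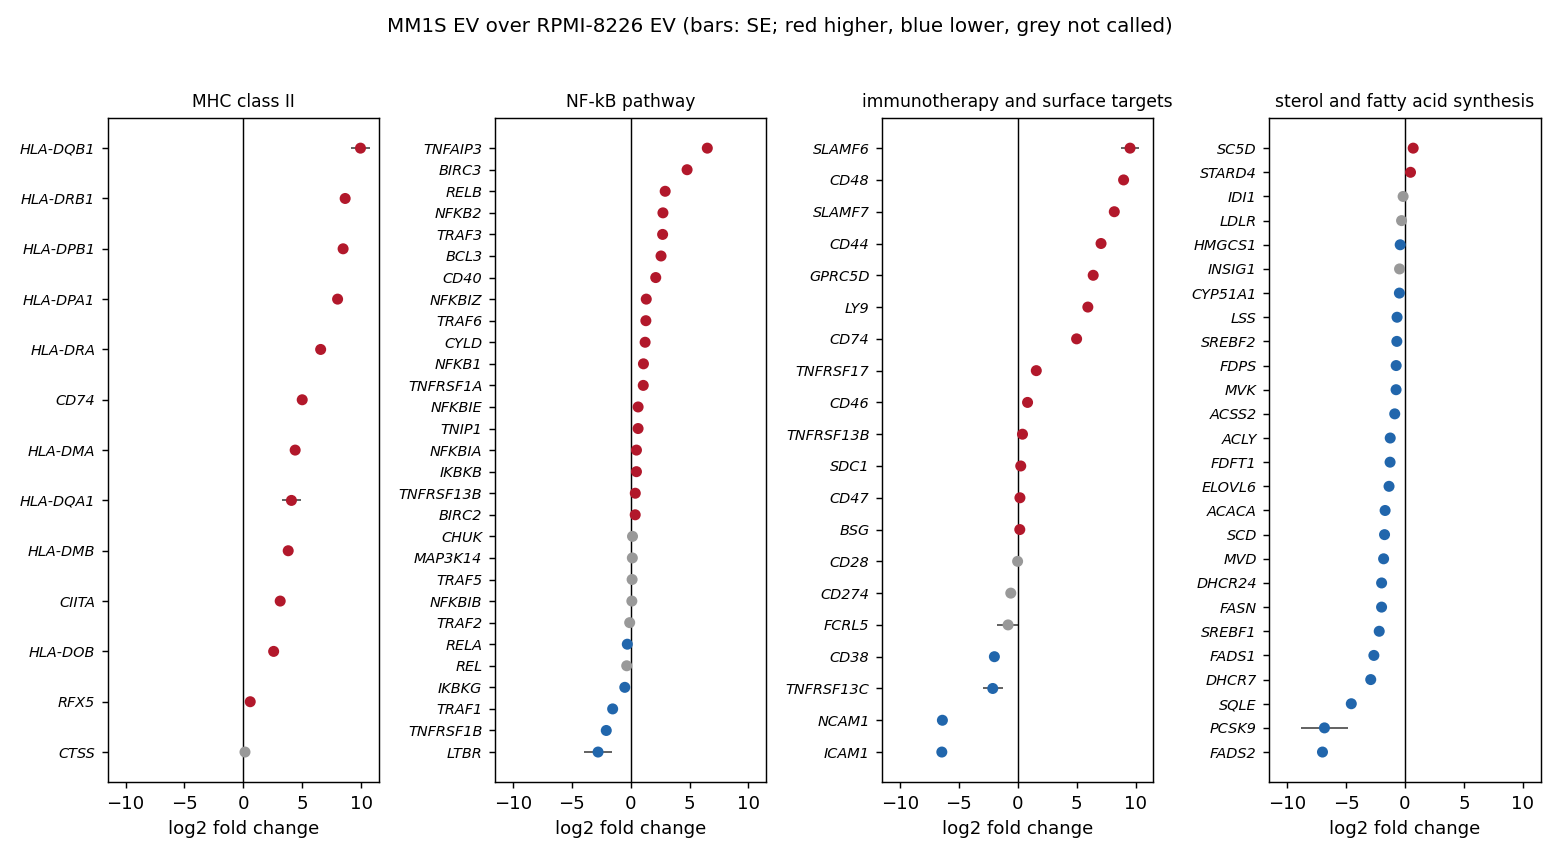
Log2 fold change of MM1S EV over RPMI-8226 EV for the tested members of 4 gene lists (1 sterol gene is not shown), with bars for the SE and colours for genes called higher (red), called lower (blue) or not called (grey). MHC class II, 12 of 13 members higher, and sterol and fatty acid synthesis, 22 of 27 lower, lie on opposite sides of 0, and values of genes at 0 counts in a line depend on the fit.

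Cytokine receptors, adhesion molecules and secreted factors held further genes with large differences. Of 34 cytokine receptor and JAK-STAT genes, 21 were higher and 6 lower in MM1S EV (median 0.78). The share called was 79.4%, against 67.7% over all genes, which were not matched for level. IL6R, the receptor of the myeloma growth factor interleukin-6, had 696 and 751 CPM in MM1S EV, against 128, 126 and 134 CPM in RPMI-8226 EV (2.48 ± 0.10, adjusted p = 8.19e-20), and its partner IL6ST averaged 442 ± 49.3 CPM in MM1S EV and 185 ± 12.2 CPM in RPMI-8226 EV. IL2RG, the shared gamma chain, had 333 and 351 CPM in MM1S EV, against 1.85, 2.31 and 3.40 CPM in RPMI-8226 EV, and JAK3, the kinase that binds it, had 44.2 and 45.9 CPM in MM1S EV, against 0.206, 0.196 and 0.548 CPM in RPMI-8226 EV. SOCS3, a feedback inhibitor, had 0 counts in MM1S EV and was at least 16.7-fold lower (0 CPM in MM1S EV and 2.63 CPM in RPMI-8226 EV), and CISH was 16.2-fold lower. STAT3 averaged 71.4 CPM in MM1S EV and 70.8 CPM in RPMI-8226 EV (adjusted p = 0.967).

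Of 29 integrin and adhesion genes, 16 were higher and 7 lower (median 0.91, or 1.03 with genes at 0 counts set to their bound). The share called was 79.3%, against 67.7% over all genes, again not matched for level. ITGA4, the alpha chain of the VLA-4 integrin, had 454 and 463 CPM in MM1S EV, against 34.4, 38.5 and 37.8 CPM in RPMI-8226 EV (3.64 ± 0.12, adjusted p = 4.06e-21). ITGA2 and ITGA6 were 5.38-fold and 15.9-fold higher. ITGA5, the fibronectin receptor chain, had 1 count in MM1S EV and averaged 0.0510 CPM in MM1S EV and 13.9 CPM in RPMI-8226 EV, a ratio of RPMI-8226 over MM1S of 254-fold (95% counting interval 45.5 to 10057). Chemokines went both ways, with 8 of 18 higher and 4 lower (66.7% called, near the 67.7% over all genes). CCL3, a chemokine that stimulates bone resorption, had 169 and 139 CPM in MM1S EV, against 0.0411, 0.0391 and 0.329 CPM in RPMI-8226 EV (10.71 ± 0.32, adjusted p = 3.77e-19), and CCR10, a homing receptor of plasma cells, averaged 52.9 ± 4.98 CPM in MM1S EV and 1.37 ± 0.172 CPM in RPMI-8226 EV. CXCL12, the marrow homing chemokine, had 0.306 and 0.335 CPM in MM1S EV, against 186, 178 and 161 CPM in RPMI-8226 EV (-9.07 ± 0.26, adjusted p = 3.41e-22), while its receptor CXCR4 averaged 67.7 CPM in MM1S EV and 68.7 CPM in RPMI-8226 EV (adjusted p = 0.957). Among growth factors and bone genes, 10 of 24 were higher and 10 lower (83.3% called). IGF1, a myeloma growth factor, averaged 121 ± 12.3 CPM in MM1S EV and 2.82 ± 0.283 CPM in RPMI-8226 EV, and MET and FGF2 were 24.2-fold and 6.78-fold higher. SPP1, which encodes osteopontin, had 0.102 and 0.669 CPM in MM1S EV, against 588, 480.4 and 483 CPM in RPMI-8226 EV (-10.41 ± 0.28, adjusted p = 6.02e-22).

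Cell death genes went in both directions, as genes did in general. Of 15 tested members of the BCL2 family, 7 were higher and 4 lower in MM1S EV (73.3% called, near the 67.7% over all genes). Among pro-survival members, MCL1, on which many myeloma cells depend, had 569 and 585 CPM in MM1S EV, against 307, 296 and 302 CPM in RPMI-8226 EV (0.94 ± 0.12, adjusted p = 1.65e-07). BCL2L1, which encodes BCL-xL, had 275 and 274 CPM in MM1S EV, against 155, 156 and 136 CPM in RPMI-8226 EV (0.88 ± 0.08, adjusted p = 1.73e-10). BCL2 averaged 128 CPM in MM1S EV and 102 CPM in RPMI-8226 EV (0.34 ± 0.11, adjusted p = 0.00999; adjusted p = 0.0838 without MM1S EV replicate 2), and BCL2L2 was 0.107 CPM in MM1S EV and 6.18 CPM in RPMI-8226 EV, with 2 counts in MM1S EV and a ratio of RPMI-8226 over MM1S of 57.0-fold (95% counting interval 15.7 to 472). BCL2A1 was under 1 CPM in both lines. Among activators of death, BMF had 245 and 227 CPM in MM1S EV, against 63.6, 49.0 and 57.4 CPM in RPMI-8226 EV (2.06 ± 0.14, adjusted p = 3.89e-12) and BCL2L11, which encodes BIM, had 236 and 213 CPM in MM1S EV, against 152, 154 and 134 CPM in RPMI-8226 EV (0.61 ± 0.09, adjusted p = 3.54e-07). BID averaged 66.4 ± 3.57 CPM in MM1S EV and 31.1 ± 3.45 CPM in RPMI-8226 EV and BAX 38.7 ± 0.0604 CPM in MM1S EV and 25.1 ± 1.78 CPM in RPMI-8226 EV, both higher. BIK was lower by a log2 fold change of -3.94, HRK averaged 0 CPM in MM1S EV and 1.99 CPM in RPMI-8226 EV, and PMAIP1 (NOXA) averaged 27.5 ± 1.83 CPM in MM1S EV and 49.3 ± 3.16 CPM in RPMI-8226 EV, both called lower too. BAK1 (adjusted p = 0.603), BAD (0.886) and BBC3 (0.458) were not called. Of 22 caspase and death receptor genes, 13 were higher and 5 lower (81.8% called). CASP2 and CASP4 were 2.33-fold and 2.49-fold higher, and MLKL, the executor of necroptosis, was 8.10-fold lower (4.31 ± 1.68 CPM in MM1S EV and 35.4 ± 2.47 CPM in RPMI-8226 EV).

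The p53 list had 13 of 31 members higher and 8 lower (67.7% called, the same share as over all genes). MDM2, a ubiquitin ligase of this pathway, averaged 352 ± 9.06 CPM in MM1S EV and 149 ± 35.5 CPM in RPMI-8226 EV. CDKN1A, the cell cycle target of p53, averaged 16.2 ± 1.56 CPM in MM1S EV and 29.2 ± 5.65 CPM in RPMI-8226 EV, lower in MM1S EV (-0.86 ± 0.31, adjusted p = 0.0203). That call was lost without MM1S EV replicate 2 (adjusted p = 0.127), MM1S EV replicate 3 (0.0586) or RPMI-8226 EV replicate 1 (0.0765). Among G1 regulators, 10 of 23 were higher and 9 lower (82.6% called). CDKN2A, which encodes p16 and ARF, had 0.204 and 0 CPM in MM1S EV, against 189.6, 168 and 179 CPM in RPMI-8226 EV, and 2 counts in MM1S EV put the ratio of RPMI-8226 over MM1S at 1679-fold (95% counting interval 465 to 13865). CDKN2B beside it had 0 counts in MM1S EV and was at least 23.1-fold lower. MTAP, the neighbour on the other side, averaged 63.3 ± 3.11 CPM in MM1S EV and 108 ± 4.79 CPM in RPMI-8226 EV, lower but expressed (-0.78 ± 0.10, adjusted p = 6.45e-08). CCNE1, which encodes cyclin E, averaged 50.1 ± 1.32 CPM in MM1S EV and 9.53 ± 1.32 CPM in RPMI-8226 EV, and CDKN1B, which encodes p27, averaged 248 ± 0.651 CPM in MM1S EV and 75.5 ± 0.787 CPM in RPMI-8226 EV.

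Of 14 cereblon genes, 6 were higher and 4 lower, so 71.4% were called, near the 67.7% over all genes. CRBN, the receptor of thalidomide analogues, averaged 33.8 ± 0.127 CPM in MM1S EV and 25.4 ± 0.820 CPM in RPMI-8226 EV (0.42 ± 0.10, adjusted p = 7.42e-04). Of its neosubstrates, IKZF3 had 217 and 208 CPM in MM1S EV, against 57.1, 55.8 and 55.0 CPM in RPMI-8226 EV (1.92 ± 0.09, adjusted p = 1.52e-17), and IKZF1 averaged 187 ± 14.7 CPM in MM1S EV and 231 ± 2.39 CPM in RPMI-8226 EV (-0.30 ± 0.08, adjusted p = 0.00197; adjusted p = 0.0697 without MM1S EV replicate 2). GSPT1 was 1.79-fold lower and CSNK1A1 1.66-fold higher. NR3C1, the glucocorticoid receptor, averaged 159 ± 8.28 CPM in MM1S EV and 150.1 ± 2.87 CPM in RPMI-8226 EV and was not called (adjusted p = 0.392). Of its 19-member list, 8 were higher and 4 lower (63.2% called, also near that share). TSC22D3, which encodes the glucocorticoid target GILZ, averaged 55.2 ± 2.32 CPM in MM1S EV and 13.1 ± 2.69 CPM in RPMI-8226 EV (2.12 ± 0.35, adjusted p = 4.96e-05), and SGK1, a kinase induced by glucocorticoids, averaged 94.4 ± 1.36 CPM in MM1S EV and 1.31 ± 0.408 CPM in RPMI-8226 EV (6.06 ± 0.31, adjusted p = 1.29e-12). FKBP5, another target, averaged 154 ± 15.2 CPM in MM1S EV and 227 ± 21.6 CPM in RPMI-8226 EV in the opposite direction, and KLF9 was 2.76-fold lower. Of 31 proteasome subunit genes, the targets of bortezomib among them, 19 were lower and 4 higher (median -0.39). PSMB5, which encodes the subunit that bortezomib binds, had 36.2 and 37.2 CPM in MM1S EV, against 96.1, 91.4 and 89.2 CPM in RPMI-8226 EV (-1.33 ± 0.10, adjusted p = 2.62e-13). Without MM1S EV replicate 3 the number higher was 2. PSMB1 was 2.84-fold lower and PSMA1 1.72-fold higher.

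**Figure D3:**
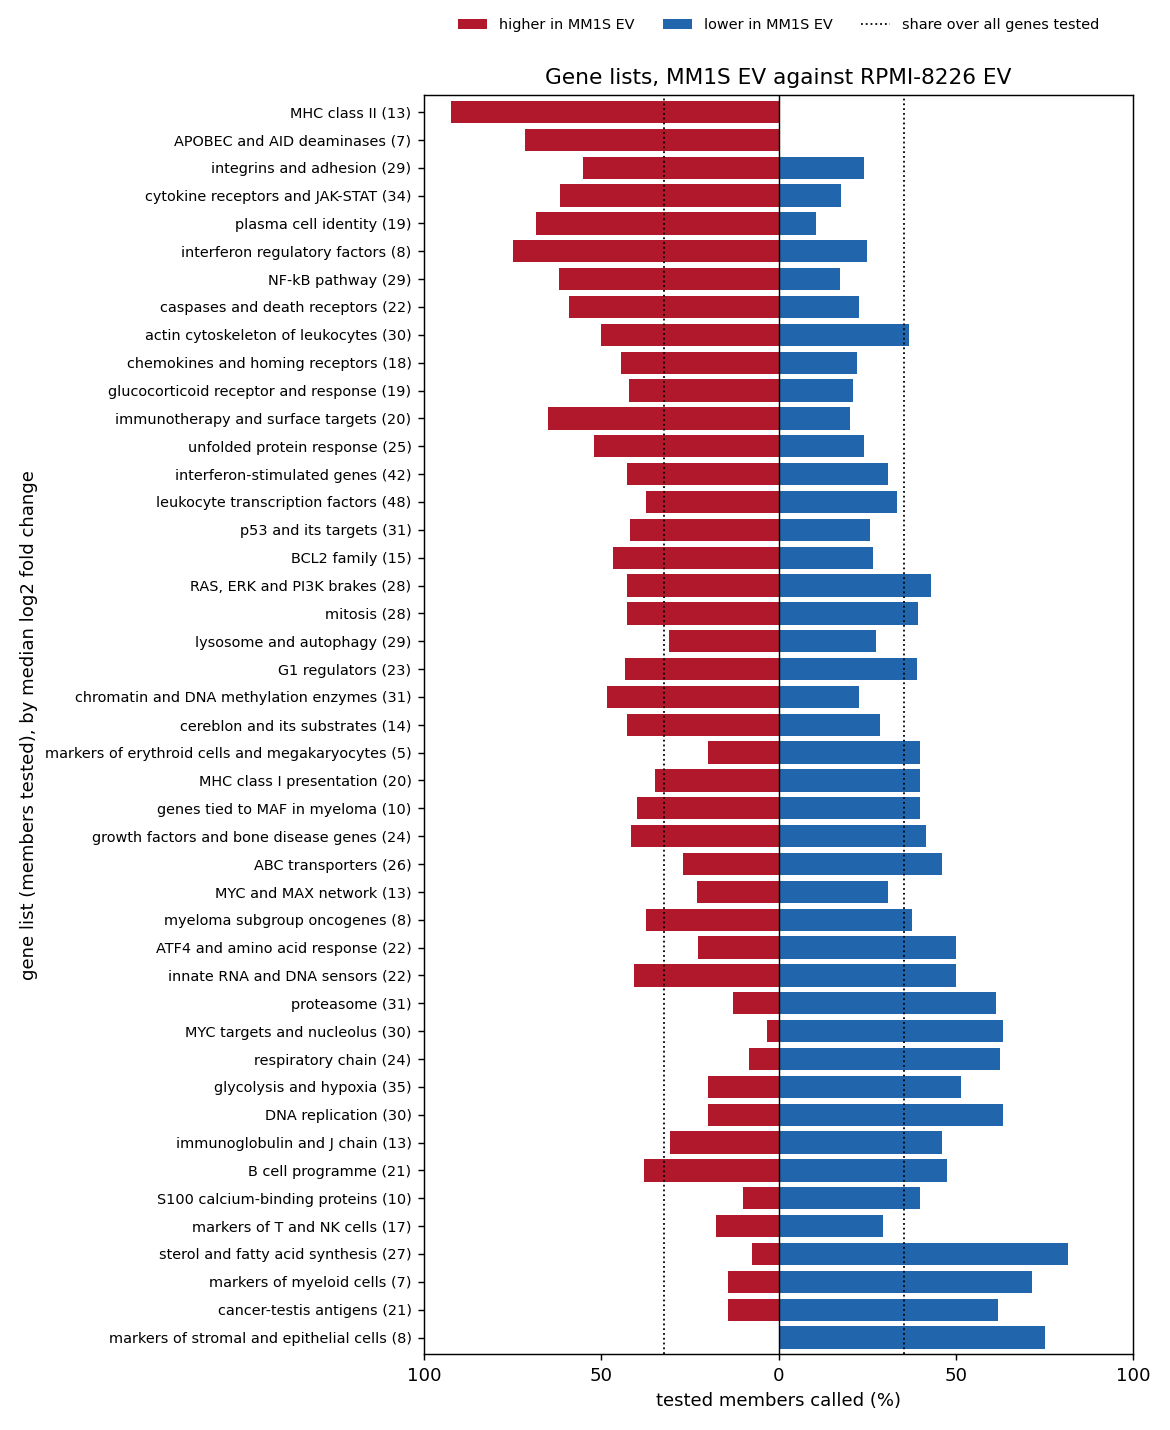
Share of tested members of each gene list called higher (red, to the left of 0) or lower (blue, to the right of 0) in MM1S EV, in percent, with the number tested in brackets and lists ordered by median log2 fold change. Dotted lines mark the shares over all genes tested (32.4% and 35.3%), and MHC class II is at the top and stromal and epithelial markers at the bottom.

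Sterol and fatty acid synthesis had 22 of 27 tested members lower and 2 higher, with a median log2 fold change of -1.25. SREBF1, a master factor of these genes, had 103 and 109.6 CPM in MM1S EV, against 514, 476 and 459 CPM in RPMI-8226 EV (-2.19 ± 0.19, adjusted p = 2.36e-09). FDPS, the target of bisphosphonates, averaged 146 ± 0.0744 CPM in MM1S EV and 246 ± 11.6 CPM in RPMI-8226 EV. SQLE, the squalene epoxidase, had 9.58 and 7.36 CPM in MM1S EV, against 207, 195 and 199 CPM in RPMI-8226 EV (-4.56 ± 0.23, adjusted p = 6.78e-14). FADS2, a fatty acid desaturase, had 3.36 and 2.12 CPM in MM1S EV, against 355, 339.7 and 371 CPM in RPMI-8226 EV (-7.00 ± 0.26, adjusted p = 5.01e-16). SC5D and STARD4 were the members called higher, 1.62-fold and 1.38-fold.

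Glycolysis and hypoxia genes were lower in 18 of 35 cases and higher in 7 (median -0.58). SLC2A1, the glucose transporter GLUT1, had 48.6 and 53.7 CPM in MM1S EV, against 225, 219.8 and 188 CPM in RPMI-8226 EV (-2.05 ± 0.19, adjusted p = 6.24e-09). PKM, the pyruvate kinase, had 773 and 916 CPM in MM1S EV, against 5436, 5238 and 5323 CPM in RPMI-8226 EV (-2.66 ± 0.13, adjusted p = 2.98e-16). The early enzymes differed by form. PFKP was at 3 counts in MM1S EV as given above, and PFKM averaged 97.6 ± 0.395 CPM in MM1S EV and 228 ± 5.52 CPM in RPMI-8226 EV. HK1, a hexokinase, had 18.6 and 25.4 CPM in MM1S EV, against 0.0823, 0.117 and 0.329 CPM in RPMI-8226 EV (7.26 ± 0.28, adjusted p = 7.00e-20), and HK2 averaged 119.7 CPM in MM1S EV and 159.6 CPM in RPMI-8226 EV (adjusted p = 0.0854, or 0.0269 by DESeq2, 0.000319 with no filter on low counts and 0.00041 with only the groups compared). LDHA averaged 1418 ± 191 CPM in MM1S EV and 1409 ± 119 CPM in RPMI-8226 EV and was not called (adjusted p = 0.977), against 0.37 (adjusted p = 0.00786) with limma on the deposited log2 RPKM. The respiratory chain had 15 of 24 lower and 2 higher (median -0.45), among them NDUFV1 (1.54-fold lower) and SDHB (1.95-fold lower).

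MYC targets and nucleolar genes had 19 of 30 lower and 1 higher (median -0.41). NCL, the nucleolin gene, averaged 952 ± 69.6 CPM in MM1S EV and 1704 ± 190.0 CPM in RPMI-8226 EV, and PES1 and WDR12, which build the large ribosomal subunit, were 1.89-fold and 1.78-fold lower. MYC itself was 2.02-fold lower in MM1S EV, as given above, and its relative MYCN was 9.51-fold lower (1.64 CPM in MM1S EV and 15.7 CPM in RPMI-8226 EV). RRS1 was the member called higher, and without MM1S EV replicate 2, MM1S EV replicate 3, RPMI-8226 EV replicate 1 or RPMI-8226 EV replicate 3 the number higher was 0, against 3 without RPMI-8226 EV replicate 2. In the MYC and MAX network 3 of 13 genes were higher and 4 lower (53.8% called, below the 67.7% over all genes). DNA replication genes had 19 of 30 lower and 6 higher (median -0.60). MCM7, a helicase subunit, averaged 428 ± 10.2 CPM in MM1S EV and 1173 ± 17.6 CPM in RPMI-8226 EV, and CDC6 and CDT1, which load the helicase, were 1.88-fold and 2.22-fold lower. RRM2, a ribonucleotide reductase subunit, averaged 1159 ± 9.43 CPM in MM1S EV and 517 ± 66.2 CPM in RPMI-8226 EV in the opposite direction. Mitosis genes were split, with 12 of 28 higher and 11 lower (82.1% called, median 0.16). MKI67, the proliferation marker Ki-67, averaged 1176 ± 66.1 CPM in MM1S EV and 239 ± 33.6 CPM in RPMI-8226 EV (2.30 ± 0.14, adjusted p = 1.74e-12), whereas CCNB2 was 2.16-fold lower. The unfolded protein response had 13 of 25 higher and 6 lower (76.0% called). EIF2AK3, the sensor PERK, was 3.08-fold higher and HSPA5, the chaperone BiP, 1.91-fold lower. In the ATF4 and amino acid list 5 of 22 were higher and 11 lower (72.7% called). The transporter genes SLC7A5 and SLC3A2 were 2.62-fold and 2.02-fold lower.

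Markers of other cell types were checked in both lines. Of 8 tested stromal and epithelial markers, 6 were lower and 0 higher in MM1S EV by edgeR. At an unadjusted p under 0.05, 1 was higher (PDGFRB, 0.553 CPM in MM1S EV and 0.130 CPM in RPMI-8226 EV), as was 1 without MM1S EV replicate 2, 2 were higher with limma on the deposited log2 RPKM, and DESeq2 called 0 higher. Their summed level was 0.204 and 1.56 CPM in MM1S EV, against 235, 247 and 236 CPM in RPMI-8226 EV. EPCAM had 0 and 0.112 CPM in MM1S EV, against 119, 124 and 106 CPM in RPMI-8226 EV and KRT18 is given above, while COL1A1 averaged 0.167 CPM in MM1S EV and 2.65 CPM in RPMI-8226 EV, and COL1A2, COL3A1, DCN and LUM were too low to be tested. Of 17 T and NK cell markers, 3 were higher and 5 lower, with sums of 6.62 and 6.58 CPM in MM1S EV, against 297, 266 and 249 CPM in RPMI-8226 EV. CD8B made up most of that sum in RPMI-8226 EV (0 and 0.112 CPM in MM1S EV, against 282, 252 and 239 CPM in RPMI-8226 EV). CD8A next to CD8B averaged 0.0558 CPM in MM1S EV and 3.71 CPM in RPMI-8226 EV, CD3D and CD3G had 0 counts in both lines, and CD3E averaged 3.87 CPM in MM1S EV and 0.0391 CPM in RPMI-8226 EV. Myeloid markers had 5 of 7 lower and 1 higher (0 without MM1S EV replicate 2), with sums of 18.8 and 23.4 CPM in MM1S EV, against 78.0, 84.2 and 77.0 CPM in RPMI-8226 EV. CD33 led these (5.69 ± 1.27 CPM in MM1S EV and 31.6 ± 3.10 CPM in RPMI-8226 EV), while CD14 averaged 0.158 CPM in MM1S EV and 1.52 CPM in RPMI-8226 EV and LYZ and MPO were not tested. Of 5 erythroid and megakaryocyte markers, 1 was higher and 2 lower (2 higher without RPMI-8226 EV replicate 3). They summed to 1.00 to 1.43 CPM in MM1S EV and 3.54 to 5.05 CPM in RPMI-8226 EV. HBD was not in this list, and at 31.9 and 36.0 CPM in MM1S EV and 0 CPM in RPMI-8226 EV it exceeded these sums in the opposite direction. The part of these markers in the differences between lines was not tested.

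B lineage and germline-type genes also differed. Of 21 B cell genes, 8 were higher and 10 lower (85.7% called, against 67.7% over all genes). The B cell kinase BLK averaged 0.0510 CPM in MM1S EV and 66.7 CPM in RPMI-8226 EV with 1 count in MM1S EV, SPI1, the factor PU.1, 11.3 ± 2.00 CPM in MM1S EV and 47.3 ± 3.73 CPM in RPMI-8226 EV, and IRF8 lower by a log2 fold change of -2.43. PAX5 averaged 0 CPM in MM1S EV and 0.772 CPM in RPMI-8226 EV, and MS4A1 averaged 0 CPM in MM1S EV and 1.29 CPM in RPMI-8226 EV. Among the 8 called higher, CD79B was 51.2-fold higher, from 3.85 CPM in MM1S EV and 0.0542 CPM in RPMI-8226 EV. Better expressed were BACH2 (29.5 CPM in MM1S EV and 9.97 CPM in RPMI-8226 EV) and CD37 (35.1 CPM in MM1S EV and 21.6 CPM in RPMI-8226 EV). CIITA, also in this list, averaged 37.8 CPM in MM1S EV and 4.38 CPM in RPMI-8226 EV. Of 21 cancer-testis antigens, 13 were lower and 3 higher, with a median log2 fold change of -4.24, or -2.64 with genes at 0 counts set to their bound. MAGEA10 had 0 and 0 CPM in MM1S EV, against 15.6, 16.2 and 12.5 CPM in RPMI-8226 EV (at least 96.2-fold lower), and MAGEA12 was at least 34.3-fold lower. MAGEA1 averaged 108 ± 2.16 CPM in MM1S EV and 39.8 ± 4.70 CPM in RPMI-8226 EV, higher in MM1S EV, and PRAME 7.95 ± 0.433 CPM in MM1S EV and 0.252 ± 0.152 CPM in RPMI-8226 EV. These genes have close paralogs, so their reads may be shared. With only the 2 groups compared in the model, 8 cancer-testis antigens were called lower.

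Of 13 immunoglobulin and J chain genes, 4 were higher and 6 lower (76.9% called, against 67.7% over all genes). IGLC2, a lambda constant gene, had 34.5 and 36.7 CPM in MM1S EV, against 3837, 3914 and 3598 CPM in RPMI-8226 EV (-6.73 ± 0.44, adjusted p = 6.86e-10), and IGLC3 averaged 10.2 CPM in MM1S EV and 916 CPM in RPMI-8226 EV. IGLL5, from the same locus, was high in MM1S EV and near 0 in RPMI-8226 EV, as given above. IGHG1 averaged 193 ± 2.79 CPM in MM1S EV and 2.04 ± 0.231 CPM in RPMI-8226 EV and IGHG4 2.98 ± 0.0400 CPM in MM1S EV and 264 ± 17.7 CPM in RPMI-8226 EV, in opposite directions. JCHAIN, which joins secreted antibodies, averaged 4758 ± 28.1 CPM in MM1S EV and 2278 ± 107 CPM in RPMI-8226 EV. Constant genes are near-identical copies, so reads may be split between them.

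Genes of other families were spread across both lines. RUNX2, a bone and plasma cell factor, had 112 and 97.2 CPM in MM1S EV, against 3.33, 2.74 and 2.41 CPM in RPMI-8226 EV (5.16 ± 0.14, adjusted p = 3.40e-23), and ETS1 averaged 108 ± 12.9 CPM in MM1S EV and 5.22 ± 0.269 CPM in RPMI-8226 EV. The deaminase APOBEC3D had 32.9 and 36.4 CPM in MM1S EV, against 0.123, 0.156 and 0 CPM in RPMI-8226 EV. Of 7 APOBEC genes, 5 were higher (71.4% called, near the 67.7% over all genes). By edgeR 0 were lower (0 at an unadjusted p under 0.05, 0 by DESeq2). APOBEC3B averaged 57.7 ± 0.609 CPM in MM1S EV and 58.7 ± 7.15 CPM in RPMI-8226 EV (adjusted p = 0.885). Of 31 chromatin genes, 15 were higher and 7 lower (71.0% called, also near that share). KDM6A, a histone demethylase, averaged 47.0 ± 0.615 CPM in MM1S EV and 14.3 ± 1.13 CPM in RPMI-8226 EV. S100A4, a calcium-binding protein of motile cells, had 0 and 0.112 CPM in MM1S EV, against 299, 269.7 and 251 CPM in RPMI-8226 EV, and ABCA2 was 16.7-fold lower (2.93 ± 0.0389 CPM in MM1S EV and 49.1 ± 4.40 CPM in RPMI-8226 EV). Of 28 genes in a list of RAS, ERK and PI3K brakes, 12 were higher and 12 lower (85.7% called). Among these brakes SPRY1 was 33.0-fold higher and NF1 2.59-fold lower. Of 48 leukocyte transcription factors, 18 were higher and 16 lower (70.8% called, near the 67.7% over all genes). Lysosome and autophagy genes had 9 of 29 higher, a number that moved without MM1S EV replicate 3, and 8 lower (58.6% called, below that share). ABC transporters had 7 of 26 higher and 12 lower (73.1% called), and leukocyte actin genes 15 of 30 higher and 11 lower (86.7% called). S100 genes had 1 of 10 higher and 4 lower, innate sensors 9 of 22 higher and 11 lower, and interferon regulatory factors 6 of 8 higher and 2 lower.

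The differences were uneven along the genome. Of called genes with a chromosome, 47.9% were higher in MM1S EV. On chromosome 4 this share was 78.4% (344 higher and 95 lower, median log2 fold change 0.66) and on chromosome 10 it was 68.2% (287 and 134). On chromosome 16 it was 19.1% (94 higher and 398 lower, median -0.56), on chromosome 14 it was 29.6% (103 and 245) and on chromosome 18 it was 31.4% (54 and 118). Chromosomes were also cut into blocks of up to 40 neighbouring genes at 20 CPM or more. On chromosome 4 the block from ELMOD2 to GALNT7 held 34 higher genes and 1 lower gene, and on chromosome 10 the block from MARCH8 to HK1 held 33 higher and 5 lower genes. On chromosome 14 the first block, from CCNB1IP1 to DHRS1, held 3 higher and 32 lower genes. The blocks named here were chosen after their values were seen. The last block of chromosome 6, from ARID1B to PDCD2, held 31 genes with 1 higher and 30 lower. On chromosome 22 the first block, from DUXAP8 to IGLV2-18, held 35 higher and 4 lower genes. On chromosome 16 the block from PDF to MAF held 3 higher and 32 lower genes.

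**Figure D4:**
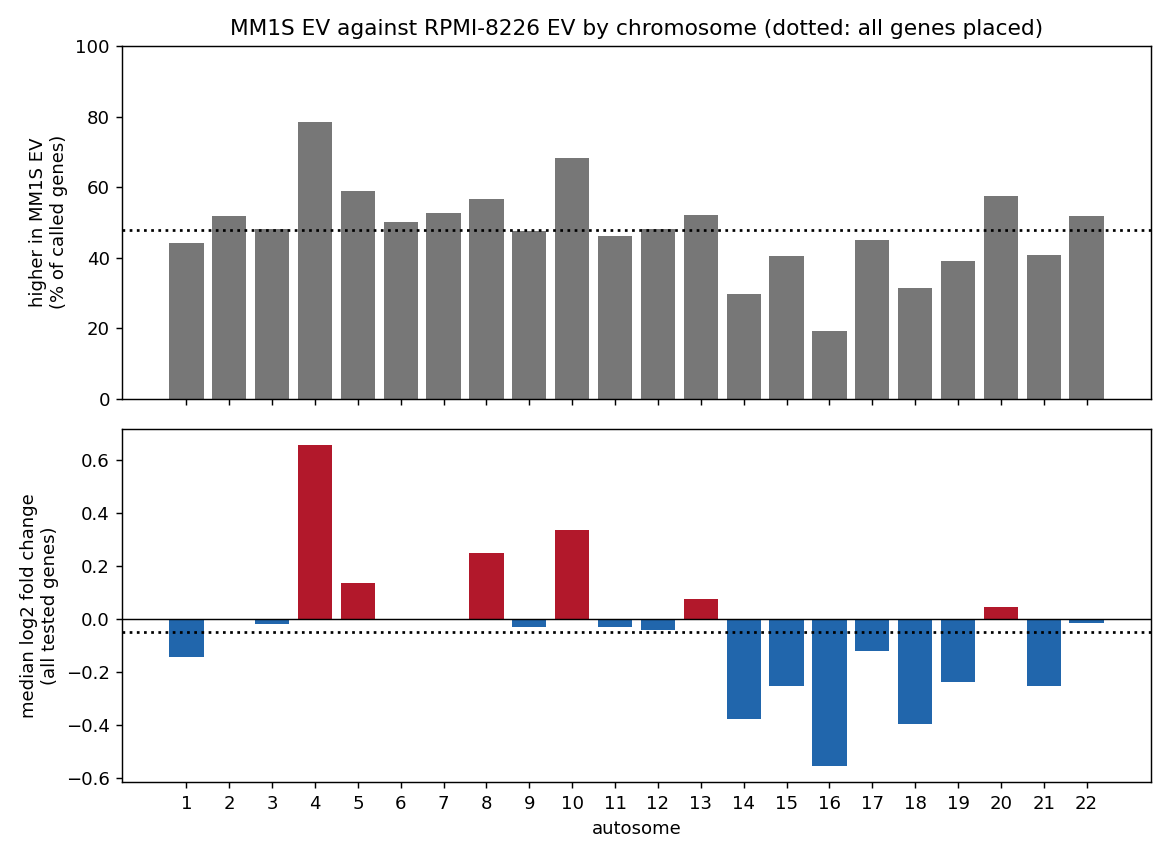
Genes higher in MM1S EV as a percentage of called genes (upper) and median log2 fold change of all tested genes (lower) by autosome, with dotted lines for all genes placed (47.9% and -0.05). Chromosome 4 (78.4%) and chromosome 16 (19.1%) stand at the extremes, and medians of 0 arise where genes at 0 counts in both lines lie in the middle.

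Runs of neighbours that differed at least 2-fold in the same direction reached 10 genes. On chromosome 6 (32190766 to 32817002, GRCh38) the run from GPSM3 to HLA-DOB held 10 genes higher in MM1S EV, among them HLA-DRA, HLA-DRB1 and HLA-DQB1. HLA-DPA1, HLA-DPB1, HLA-DMA and HLA-DMB were not part of this run. On chromosome 7 (37920640 to 38909191) 10 genes from EPDR1 to VPS41, across the T cell receptor gamma locus, were higher. On chromosome 1 (12567910 to 13062878) 10 genes from DHRS3 to HNRNPCL3, mostly of the PRAMEF family, were lower. On chromosome 19 (58183061 to 58418327) 10 genes from ZNF274 to ZNF584, mostly zinc finger genes, were lower. On chromosome 22 (17137520 to 18024561) 8 genes from HDHD5 to MICAL3 were higher, and BID is among them. On chromosome 9 (136658856 to 136808848) 8 genes from EGFL7 to CCDC183-AS1, AGPAT2 among them, were lower. Paralogs in the PRAMEF family, the zinc finger genes and the HLA genes may share reads.

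The same lines with the IRF4 guide gave a separate set of libraries, 3 of MM1S and 3 of RPMI-8226. There 12192 genes were called between the lines (74.0%). Of the 11153 genes called with the EV guide, 9453 were called in the same direction (84.8%, or 77.5% of the IRF4-guide calls) and 278 in the opposite direction. Of the 6325 called with a change of at least 2-fold, 5849 were called in the same direction (92.5%). All 28 genes with the largest differences were called in the same direction with the IRF4 guide. The difference between lines itself changed with the guide for 3319 genes (20.2%), by the interaction term of the model. MAF was among them: with the IRF4 guide it averaged 1305 ± 166 CPM in MM1S and 887 ± 52.5 CPM in RPMI-8226, so the log2 fold change was 0.56 ± 0.10, adjusted p = 1.48e-05, opposite in sign to the -1.17 of the EV libraries. MYC changed sign too, with 758 ± 52.5 CPM in MM1S and 601 ± 29.0 CPM in RPMI-8226 (0.34 ± 0.10, adjusted p = 0.00317). CIITA and HLA-DRA kept their sign with smaller values, CIITA at 1.21 ± 0.16 and HLA-DRA at 4.12 ± 0.29.

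**Figure D5:**
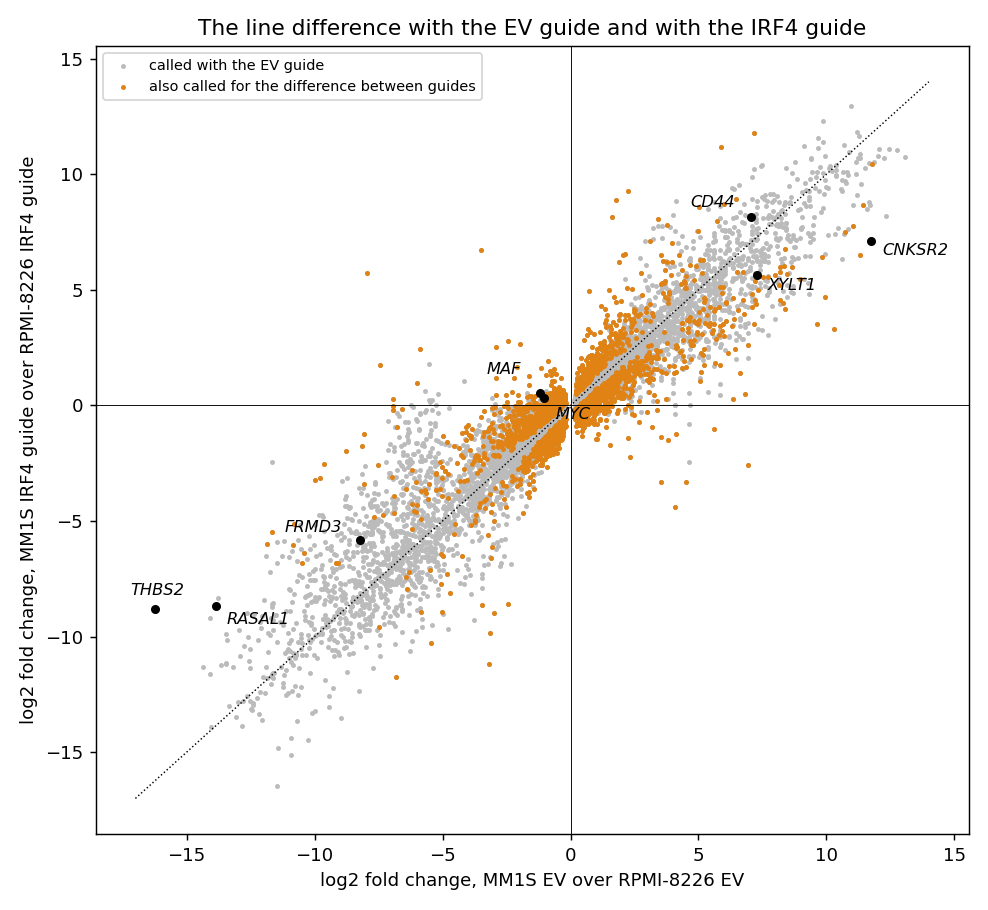
Log2 fold change of MM1S over RPMI-8226 with the EV guide (horizontal) and with the IRF4 guide (vertical) for each gene called with the EV guide, with genes whose line difference changed with the guide in orange and a dotted line at equal values. Of 11153 genes called with the EV guide, 9453 were called in the same direction with the IRF4 guide, MAF and MYC lie on the other side of 0, and THBS2 and RASAL1 lie far from it; values of genes at 0 counts depend on the fit.

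Levels in H929 EV and OPM2 EV were set beside those of the pair. Distance was taken between log2 levels (CPM plus 0.5) and the mean of H929 and OPM2. Among genes at least 2-fold higher in MM1S EV, RPMI-8226 EV was the farther line for 52.2%. Among genes at least 2-fold lower in MM1S EV, RPMI-8226 EV was the farther line for 63.9%. Genes that passed the low-count filter only through 1 line of the pair are farther in that line by construction. These shares therefore partly restate how the genes were selected. SLAMF7, at 300.1 CPM in H929 EV and 384 CPM in OPM2 EV, and CD48, at 836 CPM in H929 EV and 419.9 CPM in OPM2 EV, were low in RPMI-8226 only among the 4 lines. BIRC3, at 2.73 CPM in H929 EV and 0.641 CPM in OPM2 EV, and IL2RG, at 2.06 CPM in H929 EV and 0.286 CPM in OPM2 EV, were high in MM1S only. CX3CR1, at 0.232 CPM in H929 EV and 8.34 CPM in OPM2 EV, and CXCL12, at 0.0417 CPM in H929 EV and 0.0124 CPM in OPM2 EV, were high in RPMI-8226 only. PFKP, at 359 CPM in H929 EV and 369.7 CPM in OPM2 EV, and CD81, at 104 CPM in H929 EV and 167 CPM in OPM2 EV, were at or near 0 in MM1S only. No test was made of these orders, since the lines outside the pair served only as a description.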

How the data were processed

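RNA-seq libraries of 4 myeloma lines were analysed. The authors deposited whole read counts per gene and log2 RPKM values, and the submitters' processing notes name Subread, featureCounts, limma and GRCh38/hg38 without versions. Whether counting used strand is not stated, and paralogs and overlapping genes (HLA, immunoglobulin, CCL3 and CCL4 copies, MAGE, keratins) are therefore uncertain. All 23 libraries in 8 groups were fitted to the counts with edgeR 4.0.16 (R 4.3.3; TMM scaling, low-count filter by group, robust quasi-likelihood test, Benjamini-Hochberg), after a test on simulated data. Totals per library set the precision, and counting intervals and floors cover counting error only. The line contrast with the IRF4 guide and the interaction used the same model. Y-linked and X-inactivation genes (12 tested) were left out of per-gene values. The comparison and gene lists were chosen with earlier results of these data known. Named genes are MAF, IRF4, MYC and CCND2, the 14 largest folds and 10 smallest adjusted p in each direction, the 6 longest runs and, per list, up to 3 called genes of smallest adjusted p in each direction. Members of short lists of clinical interest may also be named, and other genes named (CDKN2A, MTAP, SQLE, FADS2, PKM, IL2RG, JAK3, SPP1, TLR7 and MKI67 among them) were chosen after their values were seen. Alternatives were RLE scaling, no filter, DESeq2 1.42.0, only the groups compared, the deposited log2 RPKM with limma 3.58.1, a replicate block and leaving out each library. Thinning to 1 depth was added after seeing the data. A few genes that the rule would name are not reported here.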

Additional observations from a re-analysis of the deposited data

Results flagged for a closer look

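Of the 50 genes with the largest folds or smallest p, or fixed by name, 12 had a difference between MM1S and RPMI-8226 that changed with the guide, by the interaction term of the model (EV difference minus IRF4-guide difference, log2 scale, edgeR with Benjamini-Hochberg adjustment). Over all genes tested, 3319 of 16468 changed by the same term (20.2%), so 12 of 50 is near the general share. MAF (-1.73, adjusted p = 4.95e-09) and MYC (-1.35, adjusted p = 1.50e-07) had opposite signs with the EV and the IRF4 guide. The differences were 1.66 for XYLT1, -2.41 for FRMD3, -1.07 for SCARB1, -1.07 for CD44, 0.72 for PTPRG, 1.33 for IGLL5 and 0.91 for LY6E. THBS2 (-7.42), CNKSR2 (4.61) and RASAL1 (-5.21) had 0 counts in 1 line with the EV guide, so these values depend on the fit. THBS2 averaged 0.103 ± 0.101 CPM in MM1S and 52.2 ± 8.67 CPM in RPMI-8226 with the IRF4 guide, against 0 CPM in MM1S EV and 511 CPM in RPMI-8226 EV.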

How the results depend on the processing

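The number of genes called between MM1S EV and RPMI-8226 EV (11153) was 9081 to 11536 under the alternatives and 9794 to 10923 with 1 library left out, where a lone MM1S library was assumed to vary like the other groups. No gene was called in the opposite direction under any alternative in the table of all genes. The share of called genes that were higher in MM1S EV ranged over 47.2% to 50.3%. With the replicate block 11536 genes were called; deviations of same-numbered libraries had r of 0.03 and 0.02, and 2 pairs are too few to judge pairing. The number of genes whose line difference changed with the guide was 1943 with libraries thinned to 1 depth, against 3319; the thinned fit tested fewer genes (14630) at fewer reads. List counts not given with the lists also moved by over 1.5 times. When thinned, NF-kB lower was 2, cytokine receptors lower 3, plasma cell lower 1, erythroid lower 1, myeloid higher 0 and MYC targets higher 2. With the block, respiratory chain higher was 4, S100 higher 2 and MYC targets higher 4. With the deposited log2 RPKM, MYC targets higher was 5 and erythroid higher 2. With only the groups compared, erythroid and myeloid higher were 0 and MYC targets higher 4, which was also 4 with no filter. Of 264 named genes checked, 19 changed their call under at least 1 alternative, IRF4 among them (0.50 without MM1S EV replicate 2). At least 1 alternative filtered out 10 genes, and 238 of the other 254 kept their call. B2M turned from -0.04 to 0.27 with the deposited log2 RPKM and limma, and the cause was not tested. Both MM1S EV libraries had fewer reads than 2 of the 3 RPMI-8226 EV libraries, and ratios of genes near 0 counts have wide counting intervals.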
